A study of Mus musculus with 3 samples.

Results

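Eph receptors and their membrane-bound ligands, the ephrins, were examined in 3 mammary tumours of FVB-MMTV-Neu mice. The 10 genes were taken by symbol as family members of epithelium and vessels. They are 7 receptor genes (Epha2, Epha4, Epha7, Ephb2, Ephb3, Ephb4 and Ephb6) and 3 ligand genes (Efna1, Efnb1 and Efnb2), out of 47480 gene symbols measured. The 12 other genes of the family were set beside them. In this strain the mouse mammary tumour virus promoter, which is active mainly in mammary epithelium, drives the Neu (Erbb2) oncogene. Per the labels' protocols, tumour material was placed orthotopically in syngeneic hosts, and the tumours reached 5 mm in diameter and were then left without treatment for 7 days. The design text of the series speaks only of tumours of untreated mice. All 3 samples form 1 group, numbered here in order of deposition, with no second condition, and the labels do not state an age or whether the tumours had separate donors.

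Eph receptors are the largest family of receptor tyrosine kinases. They bind ephrins on neighbouring cells, so that both cells can receive a signal, forward through the receptor kinase and in reverse through the ligand. A-type ephrins are held in the membrane by a lipid anchor, whereas B-type ephrins cross it and have a cytoplasmic tail with a PDZ-binding end. In epithelia the system sorts cells and sets boundaries and contacts, and in vessels ephrin-B2 marks arteries and EphB4 marks veins. EphA2 has been linked to ErbB2 signalling in mammary tumours of this mouse model.

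Library totals ranged from 11388756 estimated counts in tumour 2 to 47449113 in tumour 1, with 17147378 in tumour 3. Levels are CPM, counts relative to the library total after scaling with TMM, a method that equalises the bulk of genes between libraries. Tumour 1 stood apart from the others over all genes. The biological coefficient of variation, the spread between tumours beyond counting noise, was 63.7% over the 3 tumours and 33.3% without tumour 1. The share of counts from Rn18s-rs5, a ribosomal RNA gene, was 0.200% in tumour 1, 7.87% in tumour 2 and 6.68% in tumour 3, and 22914, 16665 and 18248 genes had counts. The part of these differences in the values below was not tested. A scaling without Rn18s-rs5 and muscle genes left the counts by fold among the 10 genes the same, but it cannot decide this. It moved the median log2 difference of tumour 1 from the others over all genes only from 0.107 to 0.105. Tumour 1 was also sequenced in lane 1 and tumours 2 and 3 in lane 5, per the names of the sequencing runs, so tumour and lane cannot be told apart. All 14 luminal epithelial markers passed the filter on low counts, with summed levels of 2597, 1946 and 2867 CPM in tumours 1, 2 and 3. Of these, 4 were at least 2-fold above and 2 below both others in tumour 1, compared with 22.1 and 20.7% of all genes. With a trend on GC content and length removed from each library, 7 were above and 1 below, compared with 19.1 and 19.2%. With TMM, 9 of 14 were highest in tumour 1, compared with 47.1% of all genes. Elf5, a regulator of luminal progenitors with the largest range of the list, was at 96.6, 5.10 and 4.07 CPM. Other luminal markers were lowest in tumour 1, among them the keratin gene Krt8 (407, 734 and 1038 CPM) and the tight junction gene Cldn7 (136, 278 and 382 CPM). Of 12710 genes that passed the filter, 9 were among the 10 Eph and ephrin genes. Epha4 did not pass. No difference between tumours has a replicate check, and intervals given below are exact Poisson 95% intervals that cover counting error only.

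Epha2 and Ephb4 were the receptors with the highest levels. Per kilobase of the longest annotated transcript, Ephb4 was at 37.2 ± 8.71 CPM per kb (SD, n = 3) and Epha2 at 36.1 ± 21.2 CPM per kb. Their ranges over the tumours overlapped, and Ephb4 was the higher of the pair in 2 of 3 tumours. Together they held 76.2, 90.7 and 89.9% of the summed level per kb of all 14 Eph receptor genes in tumours 1, 2 and 3. Tumour 1 thus had the largest share of other receptors.

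The ligands Efnb1 and Efna1 followed, at 22.0 ± 17.2 and 14.8 ± 3.14 CPM per kb. The ranges of Epha2 and Efnb1 overlapped, as did those of Efnb1 and Efna1. Between Efna1 and the next gene, Ephb3 at 3.94 ± 3.47 CPM per kb, the ranges did not overlap. The gap did not divide the whole order, since the range of Efnb1 (6.40 to 40.5 CPM per kb) overlapped that of Ephb3 (1.90 to 7.95), which was above Efnb1 in tumour 1. Then came Ephb6 (3.53 ± 2.06), Efnb2 (2.17 ± 2.49), Epha7 (1.60 ± 2.23), Ephb2 (0.368 ± 0.131) and Epha4 (0.335 ± 0.440 CPM per kb), each with a range that overlapped that of its neighbour in the order. With lengths averaged over the transcripts of each gene, Epha2 stood above Ephb4 and Ephb6 above Ephb3.

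**Figure D1:**
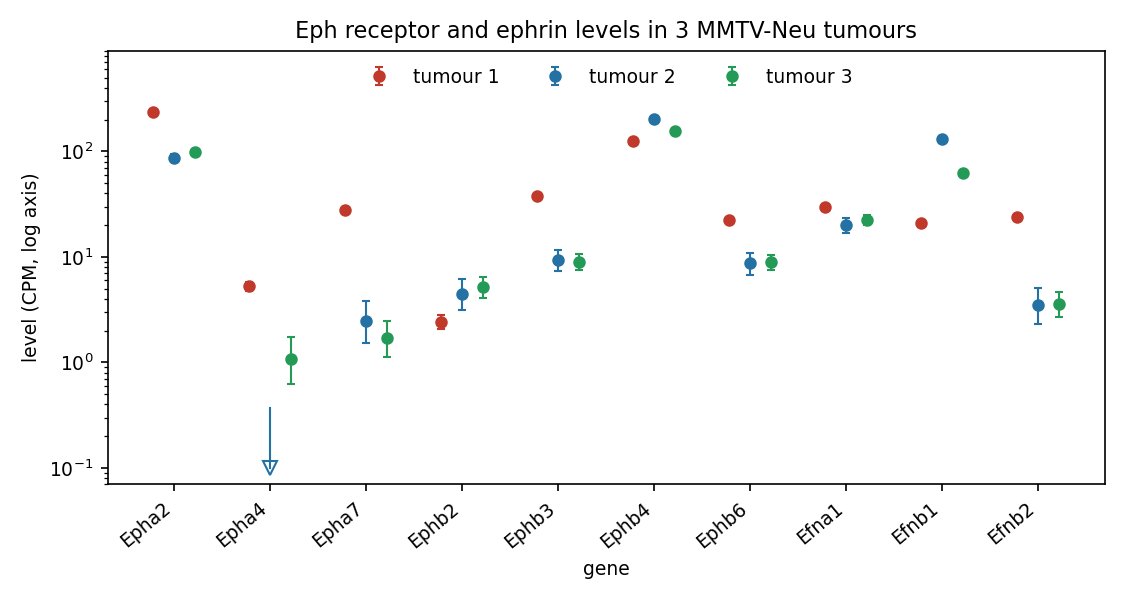
Levels of the 10 genes in CPM (log axis), with 1 point per tumour and bars for the exact Poisson 95% interval. The open triangle marks Epha4 in tumour 2, which had 0 counts, with a line up to the limit of 3 counts (0.373 CPM). Tumour 1 lies clearly above the others for Epha4, Epha7, Ephb3 and Efnb2 and below them for Efnb1, while tumours 2 and 3 lie close together except for Efnb1 and Epha4.

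Of the 9 genes past the filter, 7 were at least 2-fold apart between the highest and the lowest tumour, compared with 65.6% of all genes, and 4 were at least 4-fold apart, compared with 29.5%. Tumour 1 was at least 2-fold above both others for 5 of 9 (Epha2, Epha7, Ephb3, Ephb6 and Efnb2), whereas this held for 22.1% of all genes. At 4-fold, 3 of 9 remained (Epha7, Ephb3 and Efnb2), compared with 6.05% of all genes. Ephb3 was just past this threshold, with a log2 difference of 2.01 from tumour 2, and fell short of it with DESeq2 size factors, a prior count of 10, thinned counts and a filter on a mean CPM of at least 1. In the other direction, tumour 1 was at least 2-fold below both others for 1 gene, Efnb1, compared with 20.7%. Tumour 1 was the highest for 6 of 9, compared with 47.1% of all genes. With so few genes these shares are descriptions. By a chi-square test of counts with p-values adjusted over all genes, each of the 9 differed between libraries beyond counting noise, but so did 94.2% of all genes, and without tumour 1 it was 3 of 9 (Epha2, Ephb4 and Efnb1), compared with 62.0% of all genes. Tumours 2 and 3, from the same lane, were at least 2-fold apart for Efnb1 alone among the 9, compared with 16.2% of all genes.

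The median difference of tumour 1 from the mean of the others was 1.33 on the log2 scale over the 9 genes and 0.11 over all genes. Between tumours 2 and 3 the median absolute difference was 0.20 over the 9 genes and 0.47 over all genes. Of the 9, Efnb1 (−1.09) and Epha7 (−0.52, tumour 3 minus tumour 2) were further apart than that median of all genes, and the other 7 were closer.

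**Figure D2:**
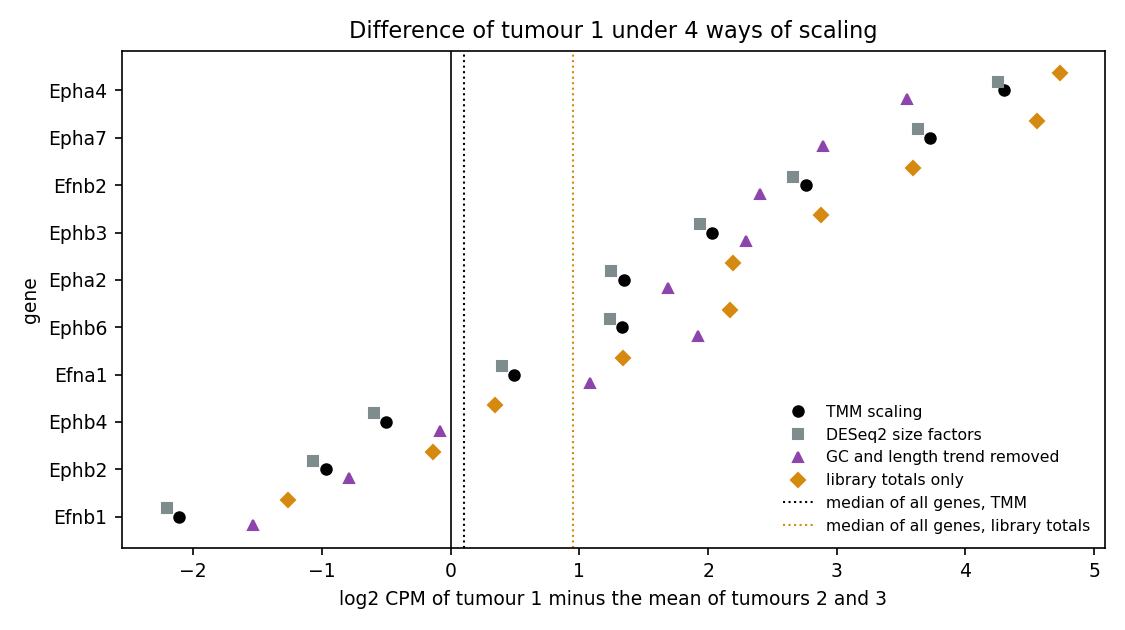
Log2 CPM of tumour 1 minus the mean of tumours 2 and 3 for the 10 genes under 4 ways of scaling (points), with the median over all genes as dotted lines. The difference runs from −2.11 for Efnb1 to 4.30 for Epha4 with TMM. Library totals alone move each gene and the median of all genes (from 0.11 to 0.95) to the right, and Ephb4 then crosses 0.

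To show what lies upstream of the genes that stood apart, the 250 bases before the RefSeq start are printed in the direction of transcription (RefSeq, GRCm38.p6), for Epha7 and Efnb2, both at least 4-fold higher in tumour 1, for Efnb1, which was lower there, and for the leading receptors Ephb4 and Epha2. The choice was made after the values were seen. Capitals mark matches to the motifs named after the sequences, on either strand. The window of Ephb3 runs into the transcript of the other annotation used here, GENCODE, and is not printed. Those of Ephb6 and Efna1, also not printed, run into it too.
Epha7 (chr4:28812881-28813130, plus strand): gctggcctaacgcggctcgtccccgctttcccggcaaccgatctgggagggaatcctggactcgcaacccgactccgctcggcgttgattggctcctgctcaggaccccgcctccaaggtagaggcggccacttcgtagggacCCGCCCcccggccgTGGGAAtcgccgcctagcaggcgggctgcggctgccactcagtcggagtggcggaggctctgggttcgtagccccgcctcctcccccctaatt
Efnb2 (chr8:8661243-8661492, minus strand): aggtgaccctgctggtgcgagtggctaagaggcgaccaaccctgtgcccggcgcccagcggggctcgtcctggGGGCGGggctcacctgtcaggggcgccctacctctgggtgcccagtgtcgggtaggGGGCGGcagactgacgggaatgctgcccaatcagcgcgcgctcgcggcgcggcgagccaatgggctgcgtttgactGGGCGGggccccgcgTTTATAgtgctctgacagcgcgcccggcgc
Efnb1 (chrX:99135811-99136060, plus strand): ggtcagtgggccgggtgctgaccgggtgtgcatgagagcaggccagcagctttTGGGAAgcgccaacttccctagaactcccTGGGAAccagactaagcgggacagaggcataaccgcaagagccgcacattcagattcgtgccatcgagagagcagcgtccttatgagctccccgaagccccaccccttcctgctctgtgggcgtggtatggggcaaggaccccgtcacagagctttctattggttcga
Ephb4 (chr5:137349859-137350108, plus strand): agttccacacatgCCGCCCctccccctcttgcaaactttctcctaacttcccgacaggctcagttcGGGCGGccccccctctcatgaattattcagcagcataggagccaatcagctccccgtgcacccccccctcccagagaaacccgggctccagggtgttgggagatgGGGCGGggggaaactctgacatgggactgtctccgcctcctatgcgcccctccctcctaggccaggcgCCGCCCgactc
Epha2 (chr4:141300971-141301220, plus strand): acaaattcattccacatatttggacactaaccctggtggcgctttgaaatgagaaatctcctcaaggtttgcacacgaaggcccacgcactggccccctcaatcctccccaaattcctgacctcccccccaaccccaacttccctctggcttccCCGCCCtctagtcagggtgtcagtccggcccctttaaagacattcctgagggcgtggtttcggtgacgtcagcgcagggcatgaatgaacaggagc

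All 10 genes had such a window in the RefSeq table, and where there was more than 1 the most upstream was used. The windows were rich in CpG. Their GC content ranged from 55.6% in Epha2 to 76.8% in Ephb6, and CpG counts from 9 to 27, compared with medians of 52.0% and 6 over 27025 promoters. The GC box GGGCGG occurred in 8 of 10, compared with 33.0% of all promoters. Efnb1 and Ephb2 had none, Ephb4 had 4 and Ephb6 had 5. These counts include the windows of Ephb3, Ephb6 and Efna1, which run into GENCODE transcripts. The only GC box of Efna1 and the GC box of Ephb6 nearest to its start lie in that overlap. The RBPJ motif TGGGAA occurred in 3 (Epha4, Epha7 and Efnb1), compared with 21.5%, the ETS motif CCGGAA in 2 (Ephb2 and Ephb6), compared with 12.3%, and the TATA box TATAAA in 1, compared with 13.0%. That match lay in Efnb2, on the opposite strand, 25 to 30 bases before the start. The AP-1 motif TGANTCA (6.85% of all promoters) and the E-box CACGTG (6.04%) had no match in these windows. GC boxes were present in Epha7 and Efnb2, which were at least 4-fold higher in tumour 1, and also in Ephb4, which was not. A match of letters is a description of the window and not a binding site.

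Among the A-type receptors, Epha2, a receptor of epithelial cells that can also signal without ligand when phosphorylated by other kinases, led in every tumour. Epha2 (chromosome 4, 141301240 to 141329384, GRCm38, 17 exons in its longest transcript) was at 236 CPM in tumour 1 (interval 233 to 240.1), 87.0 CPM in tumour 2 and 99.8 CPM in tumour 3. Tumour 1 was 2.72-fold above tumour 2 and 2.37-fold above tumour 3, which were close to each other. Its share of the summed A-receptor level per kb was 81.7, 92.9 and 94.0%.

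Epha7, known mainly for its part in axon guidance and neural development, had the widest range of the 9 genes past the filter. Epha7 (chromosome 4, 28813131 to 28967499) had 1947, 20 and 27 counts, or 28.1 CPM (26.9 to 29.4), 2.49 CPM and 1.72 CPM (1.13 to 2.50). Tumour 1 was 11.3-fold above tumour 2 and 16.4-fold above tumour 3. Epha4 (chromosome 1, 77367185 to 77515088), a receptor that binds both ephrin classes, had 365, 0 and 17 counts, or 5.28, 0 and 1.08 CPM. A count of 0 allows up to 0.373 CPM in tumour 2, taken as 3 counts of that library, so by that limit tumour 1 was at least 14.2-fold higher than tumour 2. It was 4.88-fold higher than tumour 3. In tumour 2 Epha4 was thus not detectable at this depth.

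Epha4 and Epha7 have transcripts of low GC content (45.6 and 41.7%). With a trend on GC content and length removed from each library, their log2 differences of tumour 1 from the others went from 4.30 to 3.55 and from 3.73 to 2.90. The same correction moved Epha2, at 56.9% GC, from 1.34 to 1.69.

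Of the B-type receptors, Ephb4, which in vessels is a venous marker and in the mammary gland is found in epithelium, was the most even. Ephb4 (chromosome 5, 137350109 to 137378669) was at 126 CPM in tumour 1 (122.9 to 128.2), 201 CPM in tumour 2 and 158 CPM in tumour 3 (152 to 164). The highest and the lowest tumour were 1.60-fold apart. The direction depended on the scaling. Tumour 1 minus the others was −0.50 on the log2 scale with TMM, −0.60 with DESeq2 size factors, −0.08 with the GC and length trend removed and 0.34 with library totals alone, where the median gene was at 0.95.

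Ephb3 and Ephb6 were both higher in tumour 1. Ephb3 (chromosome 16, 21204755 to 21223305), which positions cells in intestinal epithelium together with Ephb2, was at 37.7, 9.32 and 9.02 CPM in tumours 1, 2 and 3, so tumour 1 was 4.05- and 4.18-fold above the others. Ephb6 (chromosome 6, 41605482 to 41620509), a receptor without kinase activity, was at 22.2, 8.70 and 8.90 CPM, which is 2.55- and 2.50-fold higher in tumour 1. For both genes the intervals of tumours 2 and 3 overlapped. Ephb2 (chromosome 4, 136647539 to 136835988) did not follow Ephb3. It had 167, 36 and 81 counts, or 2.41 CPM (2.06 to 2.81), 4.47 CPM (3.13 to 6.19) and 5.15 CPM (4.09 to 6.40), with tumour 1 the lowest and intervals of the others overlapping. With library totals alone tumour 1 (log2 CPM 1.87) was above tumour 2 (1.73), and the difference from the others went from −0.97 to −0.14. Its 2-fold range was lost there and also with a prior count of 10, thinned counts and no filter. The ratio of Ephb3 to Ephb2 per kb was 35.9 in tumour 1, against 4.78 and 4.03.

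The sum of the B-type receptors per kb, at 43.3, 51.6 and 41.7 CPM per kb, was more even than that of the A-type receptors, at 74.0, 23.9 and 27.1 CPM per kb. In tumour 1 Epha2 exceeded Ephb4 per kb (ratio of Ephb4 to Epha2 0.478), whereas in tumours 2 and 3 Ephb4 exceeded Epha2 (ratios 2.08 and 1.43).

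**Figure D3:**
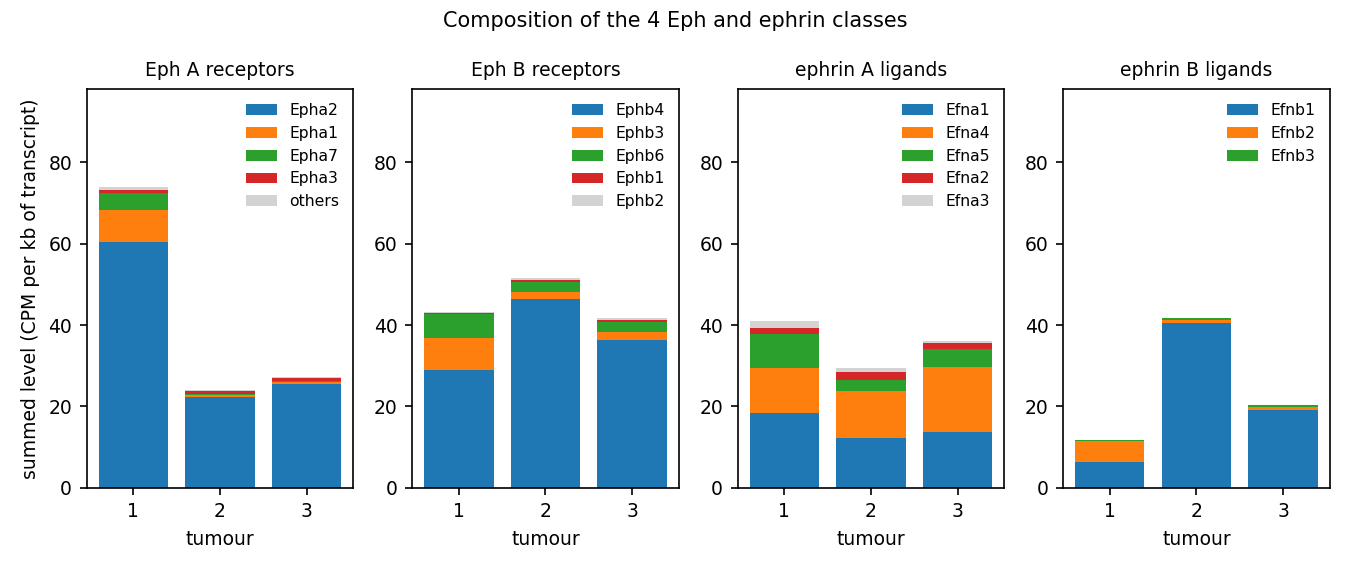
Summed level of each class in CPM per kb of transcript, by tumour, as stacked bars over all 22 genes of the family (the 4 highest genes by name, the rest in grey). Epha2 makes up most of the A-type receptors, Ephb4 most of the B-type receptors and Efnb1 most of the B-type ligands, and in tumour 1 the ephrin-B bar is the lowest and holds a visible share of Efnb2.

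Of the ligands, Efna1, a partner of EphA2, was less than 2-fold apart between tumours with TMM. Efna1 (chromosome 3, 89271733 to 89281142) was at 29.9 CPM (28.6 to 31.2), 20.0 CPM (17.0 to 23.4) and 22.5 CPM (20.2 to 25.0), so that tumour 1 was 1.49-fold above tumour 2, and the intervals of tumours 2 and 3 overlapped. This depended on the scaling. The log2 difference of tumour 1 from the others was 0.49 with TMM, 1.08 with the GC and length trend removed and 1.34 with library totals alone, and with either of the latter Efna1 was at least 2-fold apart between the highest and the lowest tumour. With library totals it was also 2-fold above both others in tumour 1. The ratio of Epha2 to Efna1 per kb was 3.30 in tumour 1, against 1.81 and 1.85.

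The main B-type ligands differed in opposite directions. Efnb1 (chromosome X, 99136130 to 99148991), a ligand that marks tissue boundaries, had 1443, 1061 and 975 counts, or 20.9 CPM (19.8 to 22.0), 132 CPM (124 to 140.0) and 62.0 CPM (58.1 to 66.0). The 3 intervals were apart, and tumour 2 was 6.32-fold above tumour 1 and 2.13-fold above tumour 3. Efnb2 (chromosome 8, 8617434 to 8661242), the arterial ligand of EphB4, had 1672, 28 and 56 counts, or 24.2 CPM (23.03 to 25.4), 3.48 CPM (2.31 to 5.03) and 3.56 CPM (2.69 to 4.62). Tumour 1 was 6.95- and 6.79-fold above the others, whose intervals overlapped. Per kb, Efnb1 exceeded Efnb2 by 1.27-fold in tumour 1, 55.7-fold in tumour 2 and 25.6-fold in tumour 3. Ephb4 exceeded Efnb2 by 5.73-fold in tumour 1, against 63.7- and 49.0-fold.

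The difference of tumour 1 from the others was between −2.21 and −1.27 on the log2 scale for Efnb1 and between 2.40 and 3.59 for Efnb2 with DESeq2 size factors, library totals and the GC and length trend removed. With library totals alone Efnb1 was no longer 2-fold below both others in tumour 1. Its 2-fold gap between tumours 2 and 3 ended there too, and with the GC and length trend removed.

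Because ephrin-B2 and EphB4 are vessel markers, endothelial genes were set beside them. The 15 endothelial markers summed to 418 CPM in tumour 1, 2731 CPM in tumour 2 and 1128 CPM in tumour 3. All 15 passed the filter, none was at 0 counts in any library, none was highest in tumour 1, and 6 were at least 2-fold below both others there, compared with 20.7% of all genes. With the GC and length trend removed it was 3, near the 19.2% of all genes, and without tumour 3 it was 12, compared with 27.7%. Pecam1, an adhesion molecule of endothelium, was at 56.4, 775 and 231 CPM. Efnb2 was thus highest in the tumour with the lowest endothelial sum. It equalled 5.78% of that sum in tumour 1, against 0.127 and 0.315%. Ephb4 equalled 30.0, 7.35 and 14.0%. The sums of the arterial list (101, 147 and 106 CPM) and the venous list (81.8, 129 and 83.2 CPM) were highest in tumour 2. Single genes differed from these sums, and 1 of 6 arterial and 2 of 5 venous genes past the filter were highest in tumour 1. Among these were Hey1 (20.8, 10.8 and 8.07 CPM) and Aplnr (33.8, 24.0 and 17.9 CPM). Unc5b, at 59.5, 75.7 and 67.3 CPM, was the largest part of the arterial sum. In bulk tumour RNA, fewer cells of a type and less RNA per cell cannot be told apart.

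Basal epithelial markers were also higher in tumour 1. Their 10 genes summed to 919, 108 and 134 CPM. Of 8 past the filter, 7 were at least 2-fold above both others in tumour 1, compared with 22.1% of all genes. The integrin gene Itgb4 was at 288, 23.4 and 39.98 CPM. Col17a1, a hemidesmosome collagen, had 0 counts in tumour 2. The 14 skeletal muscle markers summed to 9.38, 53850 and 24585 CPM. All 5 past the filter were at least 2-fold below both others in tumour 1, compared with 20.7% of all genes. The sums of the fibroblast list (4228, 6846 and 3808 CPM) and the pericyte list (344, 676 and 371 CPM) were highest in tumour 2. So was that of the macrophage list (609, 3865 and 2492 CPM). Single genes differed from these sums, and 1 of 10 fibroblast, 2 of 7 pericyte and 2 of 9 macrophage genes were highest in tumour 1. At least 2-fold below both others there were 2 of 10, 0 of 7 and 4 of 9, compared with 20.7% of all genes. C1qa (161, 2426 and 1369 CPM) was the largest part of the macrophage sum and Col1a1 (1576, 3695 and 1625 CPM) of the fibroblast sum. The 7 nerve sheath markers summed to 61.8, 143 and 107 CPM, with none of the 7 at 0 counts. Of 5 past the filter, 3 were below in tumour 1 and none above, compared with 20.7 and 22.1% of all genes. S100b, below the filter, was at 10.8, 1.99 and 0.318 CPM. Adipocyte markers (296, 217 and 155 CPM) were highest in tumour 1, lymphocyte markers (2.83, 11.6 and 10.6 CPM) lowest there, and epidermis markers low throughout (4.06, 0.621 and 1.78 CPM). The part of any of these cell types in the Eph and ephrin values was not tested.

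**Figure D4:**
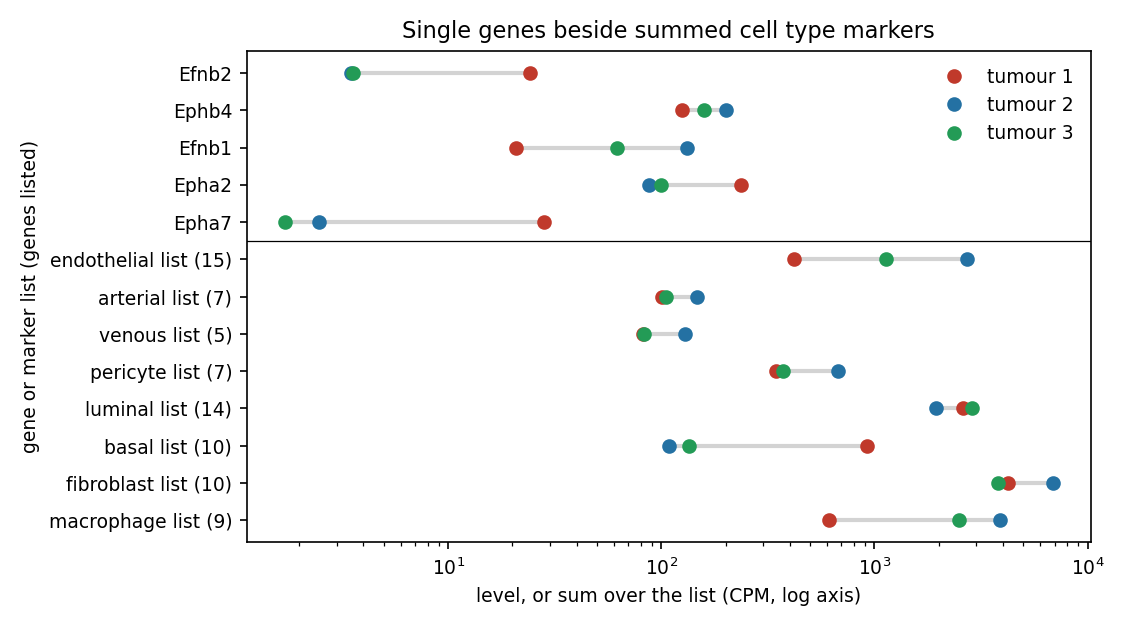
Levels of 5 single genes (above the line) and summed levels of 8 marker lists (below, with the number of genes listed) in CPM on a log axis, 1 point per tumour. Tumour 1 is the highest point for Efnb2, Epha2, Epha7 and the basal list and the lowest for Ephb4, Efnb1 and the endothelial and macrophage lists. It is also the lowest, close to tumour 3, for the arterial, venous and pericyte lists.

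Of the 12 other family genes, 8 passed the filter, 2 of them with tumour 1 at least 2-fold above both others and none below (1 and 1 with DESeq2 size factors). That is near the 22.1% of all genes above. Epha1, a receptor of epithelia, resembled Epha7, at 25.7, 1.74 and 1.46 CPM, from 1781, 14 and 23 counts. Efna3 was at 4.25, 1.99 and 0.953 CPM. The ephrin genes next to it, Efna1 and Efna4, were not 2-fold higher in tumour 1 with TMM. All of these lie within 1 stretch of chromosome 3, with 32.8 kb between Efna1 and Efna3 and 10.4 kb between Efna3 and Efna4. Efna4 was at 17.9, 18.4 and 25.4 CPM, highest in tumour 3. Efna5 was at 34.0, 10.8 and 18.3 CPM. Low in each tumour were Epha3 (3.57, 3.48 and 3.88 CPM), Efnb3 (1.21, 1.62 and 1.59 CPM), Efna2 (2.82, 4.35 and 2.92 CPM) and Ephb1 (1.45, 2.86 and 2.86 CPM). Epha5, below the filter, had 4, 11 and 7 counts. Epha6 and Epha10 were without a single count, with a limit of 0.0434 CPM in tumour 1 by the same 3 counts, 0.373 in tumour 2 and 0.191 in tumour 3, and Epha8 had 3, 0 and 0 counts.

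Genes that lie near these were also counted. Efnb2 had 1 gene past the filter within 1 Mb, with a log2 difference of 1.18 from the mean of the others but not 2-fold above each of them, and Epha7 had none. Genes with tumour 1 at least 2-fold above both others, 22.1% of all genes, were 3 of 22 past the filter around Ephb3, 8 of 27 around Epha2 and 6 of 28 around Ephb2. They were 6 of 45 around Ephb4, 9 of 66 around Efna1, 1 of 5 around Efnb1 and 0 of 2 around Epha4. Around Ephb6 there were 2 of 7, among them Epha1 at a distance of 738 kb. Genes with tumour 1 at least 2-fold below both others, 20.7% of all genes, were 23 of 66 around Efna1 and 13 of 45 around Ephb4. They were 10 of 28 around Ephb2, 5 of 27 around Epha2, 4 of 22 around Ephb3 and 3 of 7 around Ephb6. Around Efnb1 it was 1 of 5, and around Epha4 and Efnb2 it was 0.

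The forward pathway list held kinases, exchange factors, adaptors, small GTPases and phosphatases, and so not only genes that pass the receptor's signal on. Of its 33 genes, 26 were highest in tumour 1, compared with 47.1% of all genes. All 33 passed the filter, of which 17 were at least 2-fold above both others in tumour 1 and 1 was below, compared with 22.1 and 20.7% of all genes. Their median log2 difference was 1.30, against 0.11 over all genes. The small GTPase gene Rhoa was at 407, 118 and 164 CPM, Rac1 at 350.1, 120 and 200.3 CPM, and the kinase gene Src at 144, 59.3 and 54.6 CPM. Sipa1l1, a GTPase activator and the gene of this list with the largest range, was at 33.4, 3.85 and 5.97 CPM. With the GC and length trend removed, 12 were above, compared with 19.1% of all genes, and the median was 0.85. With library totals alone, 24 were above, at a share of 40.4% of all genes.

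Partners of ephrin tails went both ways. Of 12 genes, 10 passed the filter. Among these, 3 were at least 2-fold above both others in tumour 1 and 2 below, near the 22.1 and 20.7% of all genes. The median difference of the 10 was −0.41, which turned to 0.43 with library totals alone. Stat3 was at 235, 1096 and 817 CPM, the PDZ protein gene Sdcbp, which encodes syntenin, at 155, 315 and 234 CPM, and Pick1 at 66.3, 102 and 116 CPM. Grip2, below the filter and with the largest range, was at 0.145, 3.48 and 1.33 CPM. Grip1 had 0 counts in all 3 libraries. Of 11 proteases and related genes that cut Eph receptors or ephrins, 10 passed the filter. Tumour 1 was above for 2 and below for 3, compared with 22.1 and 20.7% of all genes. With the GC and length trend removed it was 0 and 2, compared with 19.1 and 19.2%. With library totals alone it was 5 and 1, compared with 40.4 and 10.5%. With TMM the 2 genes above were Adam10 (102, 22.4 and 33.7 CPM) and Adam9 (67.7, 13.5 and 28.6 CPM). Mmp14, a membrane-type metalloprotease that cleaves EphA2, was at 238, 905 and 483.5 CPM, Ncstn, a subunit of gamma-secretase, at 107, 152 and 146 CPM, and Mmp2 at 65.6, 176 and 121 CPM. The rhomboid protease gene Rhbdl2, which had the largest range, was below the filter with 101, 0 and 4 counts.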

How the data were processed

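RNA-seq libraries of 3 tumours (TruSeq mRNA, paired reads of 50 bp) were used. The deposited tables hold Salmon's estimated counts (NumReads per the file headers) for each symbol, not normalized by the authors. Per the submitters' processing notes, STAR, SAMtools, Picard and build mm10 were also used. The sources used here do not give tool versions, annotation release or strandedness, so reads of overlapping antisense genes, or of near-identical stretches within the family, cannot be told apart.

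Counts were rounded, filtered with filterByExpr (edgeR 4.0.16, R 4.3.3; minimum count 10, minimum total 15) and scaled with TMM (factors 1.48, 0.722 and 0.936). Log2 CPM had a prior count of 2. A gene was called apart at a log2 difference of 1 (2-fold) or 2 (4-fold). A chi-square test of each gene's counts against the scaled totals (Benjamini-Hochberg adjustment, 0.05) compares libraries and not conditions. Lengths, GC contents and positions came from GENCODE M21 (GRCm38), which matched 45213 symbols. Scripts were tested on simulated data. All 10 genes are named, as are those of the 12 relatives with at least 10 counts in any library. Other lists give their 3 genes of highest mean and the 1 of widest range, of which markers are printed in part. For the ephrin-tail and protease lists the genes above in tumour 1 were added. The genes and lists were chosen with earlier results of these data known. Alternatives were DESeq2 1.42.0 size factors, library totals, other filters and prior counts (0.5 and 10), thinned counts, TMM without muscle genes and Rn18s-rs5, a GC and length trend, other lengths and leaving out each tumour.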

Additional observations from a re-analysis of the deposited data

How the results depend on the processing

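With each tumour left out in turn, 1 to 8 of the genes were at least 2-fold apart and 0 to 4 at least 4-fold apart. By the chi-square test 3 to 10 were beyond counting noise. The lowest values each time came without tumour 1, where the shares of all genes were also lowest, at 15.9, 1.09 and 62.0%. Without tumour 2 the shares were 49.5, 18.3 and 84.6%, and without tumour 3 they were 59.3, 27.9 and 85.1%. Each of these compares 2 libraries. The median log2 CPM of the genes past the filter ranged from 2.92 to 4.43. The number with tumour 1 at least 2-fold below both others was 1 or 2 when tumour 2 or 3 was left out and 0 with library totals alone. The shares of all genes were 23.6% without tumour 2, 27.7% without tumour 3 and 10.5% with library totals alone. The number with tumours 2 and 3 at least 2-fold apart was 0 with library totals alone and with the GC and length trend removed. The shares of all genes there were 21.8 and 13.9%. Without a filter and with a mean CPM of at least 1 it was 2 (Epha4 and Efnb1), since Epha4 then entered. In these settings the shares were 27.7 and 21.4%. The number with tumour 1 at least 2-fold above both others was 5 or 6 in every alternative, but the share of all genes moved. It ranged from 19.1% with the GC and length trend removed (5 of 9) to 40.4% with library totals alone (6 of 9). Leaving out tumour 1 gives no such value. Epha2 ranked above Ephb4 per kb, and Epha4 above Ephb2, without tumour 2 or 3. Efna1 also ranked above Efnb1 without tumour 2. Without tumour 1, Efnb1 ranked above Epha2, Ephb6 above Ephb3 and Ephb2 above Epha7. No gene called apart in tumour 1 changed direction. Library totals alone raised the share above among all genes apart in tumour 1 from 51.6 to 79.3%, and no filter raised it to 62.8%. Depth limits Epha4, Epha7 and Efnb2, which had at most 56 counts each in tumours 2 and 3. No paired analysis was possible because there is 1 group.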
